A study of Homo sapiens with 12 samples.

Results

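The response of PLC/PRF/5 cells to lactate was set against the mean response of HLF and SNU475 cells, gene by gene. For each gene the lactate effect in PLC/PRF/5 (lactate minus control, log2 scale) was reduced by the mean of the effects in HLF and SNU475, so a positive difference means a higher response in PLC/PRF/5. All 12 of the 12 libraries of the series enter: 4 from PLC/PRF/5 and 8 from HLF and SNU475. They form 6 groups of 2 libraries, PLC/PRF/5 with lactate and control, HLF with lactate and control, and SNU475 with lactate and control. Of 62710 genes listed, 18355 had enough counts to be tested, and no gene was chosen by its response.

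HLF, SNU475 and PLC/PRF/5 are established human hepatocellular carcinoma lines. Treated cells had 20 mM lactate, given as lactic acid, for 24 h, and the controls are labelled only as control. Total RNA was sequenced from directional libraries with 16530000 to 22190000 counts each. Whether the libraries of a group stem from separate cultures is not stated, so p-values here reflect the spread between libraries, part of which may be technical. In bulk RNA, fewer cells of a kind and less RNA per cell cannot be told apart. The share of mitochondrially encoded transcripts was 6.21% to 7.08% in PLC/PRF/5, 3.39% to 9.52% in HLF and 8% to 15.05% in SNU475, where it was over 13% only in the lactate and control libraries numbered 2, at 13.88% and 15.05%.

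Lactate enters and leaves cells through monocarboxylate transporters together with a proton, and lactate dehydrogenase interconverts it with pyruvate. A dose of lactic acid can therefore act as a fuel, shift the redox state of the cell and lower the pH of the medium, and lactate is also a substrate for lactyl marks on proteins. Epithelial-type liver cancer lines keep cell contacts and part of the hepatocyte programme, while mesenchymal-type lines express vimentin and fibrillar matrix genes.

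HLF and SNU475 are the mesenchymal lines of the comparison, and their markers bear that name out only in part. Without lactate, VIM, which encodes the intermediate filament vimentin, was at 404 ± 87.5 TPM in PLC/PRF/5 against 4270 ± 200 TPM in HLF and 3400 ± 222 TPM in SNU475 (SD, n = 2 each). CDH1, which encodes the epithelial cadherin, was at 43.0 ± 3.68 TPM in PLC/PRF/5 against 0.115 ± 0.0495 TPM in HLF and 0.93 ± 1.07 TPM in SNU475. The 10 hepatocyte markers summed to 1396 and 1979 TPM in the PLC/PRF/5 controls, against 10.9 and 16.2 TPM in the HLF controls and 3.62 and 2.10 TPM in the SNU475 controls. Other markers did not follow the name. The mesenchymal factors SNAI2 and PRRX1 were at 0.18 and 0 TPM in untreated HLF, while SNU475 had 70.5 TPM of the biliary keratin gene KRT19. FN1, which encodes fibronectin, was at 1020 TPM in untreated PLC/PRF/5, against 148 TPM in HLF and 1010 TPM in SNU475. The epithelial genes EPCAM and ESRP1 were at 0.145 and 0.025 TPM in PLC/PRF/5, and KRT8 and KRT18 were abundant in every line. Of 20 markers of other liver cells 4 averaged 1 TPM or more in the PLC/PRF/5 controls. The list summed to 201.7 and 285.6 TPM with lactate in PLC/PRF/5 against 148.9 and 217.9 TPM in the controls. The 4 were LYZ, CD68, SOX9 and RGS5, at 128, 26.3, 24.8 and 2.6 TPM in the PLC/PRF/5 controls. LYZ, the highest of them, was at 174 ± 47.1 TPM with lactate against 128 ± 51.9 TPM without. PECAM1, also on the list, passed 1 TPM only with lactate, at 3.5 ± 1.21 TPM against 0.87 ± 0.297 TPM in the PLC/PRF/5 controls. The T-cell gene CD3E and the leukocyte gene PTPRC were at 0 TPM in every PLC/PRF/5 library. Because of these mixed markers the lines are named singly below.

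No gene passed an adjusted p of 0.05 for the difference between PLC/PRF/5 and the other lines (edgeR quasi-likelihood test, Benjamini-Hochberg adjustment over 18355 genes, 0.0% called). The smallest adjusted p was 0.861. An unadjusted p under 0.05 was seen for 743 genes, or 4.05%, where an even spread of p-values would give 918. Of these, 421 (2.29% of all genes) were positive and 322 (1.75%) negative. This fit does not pair same-numbered libraries, and 1507 genes had such a p in the edgeR fit that does, given below. In 1587 of the genes at least 1 line had no count at all, so the difference could not be estimated and the p was over 0.99. Over the other 16768 genes the 743 compare with 838 expected, and none passed either (smallest adjusted p = 0.787, edgeR). Over all genes tested the median difference was 0.05, with 54.6% of the differences above 0 and 45.4% below.

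**Figure D1:**
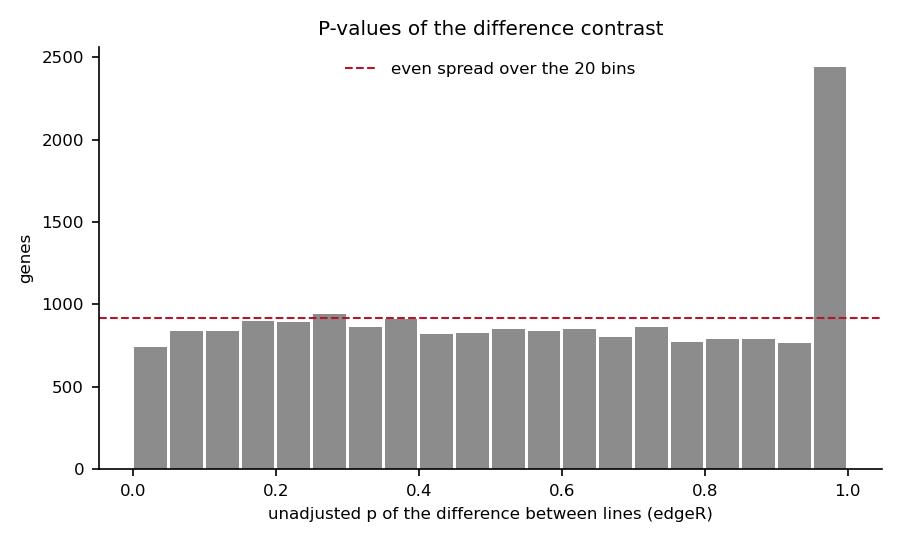
Number of genes (vertical axis) in bins of the unadjusted p of the difference between PLC/PRF/5 and the mean of HLF and SNU475 (horizontal axis, edgeR), with a dashed line where each bin would stand under an even spread. The lowest bin holds 743 genes and lies below the line at 918, and the highest bin holds 2440, among them the 1587 genes without counts in some line.

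The precision of the difference was limited. Its median standard error was 0.45 on the log2 scale over all genes, and 0.28 over the 7670 genes with at least 10 CPM (counts scaled to library size) in every group. In counts simulated from these libraries, a true difference of 2 on the log2 scale was called for 57 of 100 genes and a difference of 1 for 3 of 100. The changed genes were drawn only from genes above a limit of mean counts, so these shares do not cover scarcer genes. The simulated libraries had no deviation shared by replicate number. A difference of 1 in a single gene was therefore mostly out of reach at this number of libraries, and the count of 0 does not show that the lines responded alike.

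Other fits called a few genes. With line and replicate number as blocks, which takes same-numbered libraries as pairs, 8 genes passed (0.0436%). The cell-adhesion and growth-related gene CCN1, the actin-binding gene TAGLN, the matrix gene THBS1, the growth factor-like gene CCN2 and the semaphorin gene SEMA4G passed with a negative difference. COL6A2, EHD2 and ENSG00000263244 passed with a positive one. DESeq2 called 6 genes (0.0327%), COL6A2, EHD2, GDF11, ANXA6 and CXCR5 with a positive and SARM1 with a negative difference. The values of these genes are given below.

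The lactate effects of the lines ran partly together. Over the 7670 genes with at least 10 CPM in every group, the effect in PLC/PRF/5 and the mean effect in HLF and SNU475 correlated across genes at r = 0.379 (rho = 0.353), and 62.1% of the genes had the same sign. PLC/PRF/5 correlated with HLF at 0.356 and with SNU475 at 0.314, and HLF with SNU475 at 0.523. The groups do not share libraries in these correlations, but genes are not independent replicates. In the PLC/PRF/5 effect alone 1087 genes had an unadjusted p under 0.05 (5.92%), 827 of them higher with lactate (4.51%) and 260 lower (1.42%). For the mean effect in HLF and SNU475, which rests on 8 libraries, there were 2727 (14.9%), with 7.97% of all genes higher and 6.89% lower. HLF and SNU475 differed from each other with such a p in 3.52% of the genes, 1.77% with the higher effect in HLF and 1.76% with the lower. None of these contrasts had a gene past an adjusted p of 0.05 by edgeR without the block. With the replicate block 121 genes passed for the PLC/PRF/5 effect (0.659%) and 672 for the mean of the other lines (3.66%). DESeq2 called 91 (0.496%) and 700 (3.81%) for the same contrasts.

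**Figure D2:**
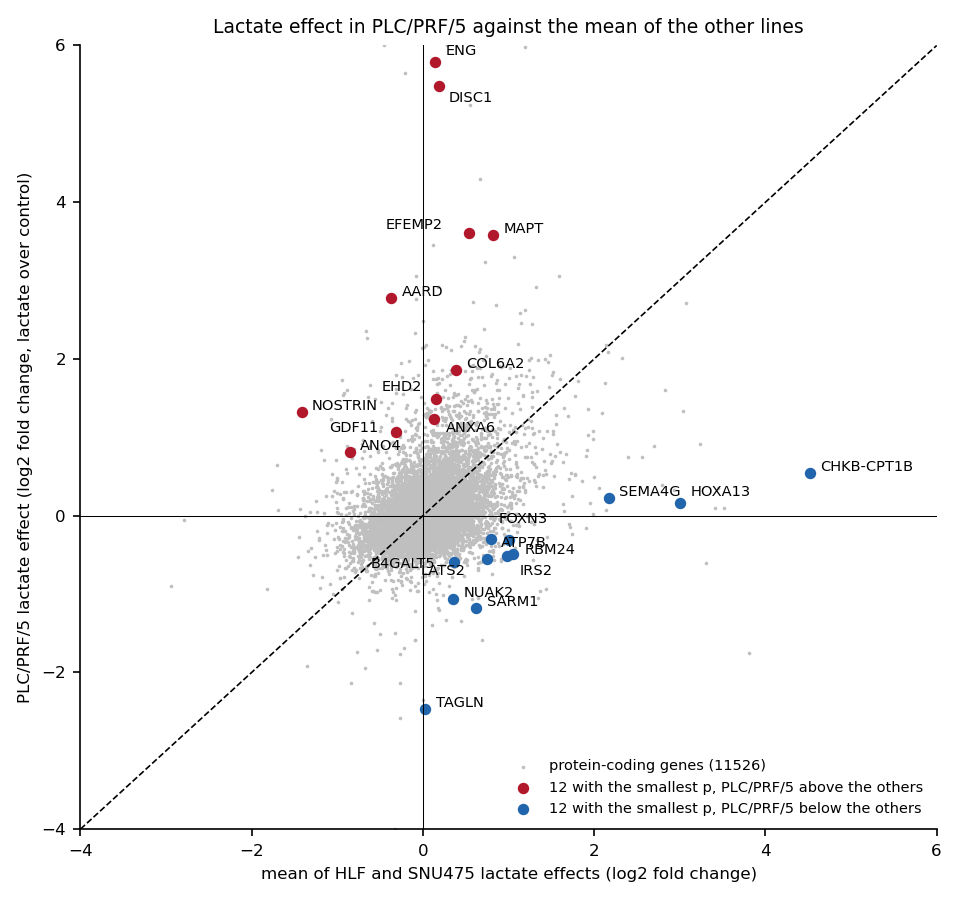
Lactate effect in PLC/PRF/5 (vertical axis, log2 fold change of lactate over control) against the mean lactate effect in HLF and SNU475 (horizontal axis, log2) for 11526 protein-coding genes that average 2 CPM or more and have 10 or more counts in each line. The dashed line marks equal effects, values beyond the axes are drawn at the edge, and the named genes are the 12 with the smallest p in each direction, of which MICOS10-NBL1 lies outside the plot.

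Genes whose groups did not overlap give the same picture without a model. In 500 genes (2.72%) both lactate libraries lay above both controls in all 3 lines, and in 618 genes (3.37%) both lay below. Opposite patterns were fewer. In 97 genes (0.528%) the lactate libraries were the higher in PLC/PRF/5 and the lower in both other lines, and in 114 genes (0.621%) they were the lower in PLC/PRF/5 and the higher in both others. With 2 libraries a group, some genes show such a pattern by sampling alone. That share was not tested, so these genes are not read as opposite responses.

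Among genes with a positive difference the smallest p belonged to COL6A2 and EHD2, both low in PLC/PRF/5 and abundant in the other lines. COL6A2 (ENSG00000142173), a chain of collagen VI, was at 10.7 and 10.1 CPM in the PLC/PRF/5 lactate libraries against 2.82 and 2.89 CPM in the controls. In HLF it was at 791 and 685 CPM with lactate against 695 and 588 CPM without, and in SNU475 at 612 and 645 CPM against 360 and 488 CPM. The PLC/PRF/5 and SNU475 groups were apart and the HLF groups overlapped. The difference was 1.48 ± 0.26 on the log2 scale (SE), with adjusted p = 0.861 by edgeR, adjusted p = 0.0494 with the replicate block and 0.00301 by DESeq2. Leaving out single libraries gave 1.36 to 1.58.

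The partner chain COL6A1 had 16.2 and 21.7 CPM with lactate in PLC/PRF/5 against 6.37 and 7.76 CPM in the controls, and a difference of 1.15 ± 0.32 (unadjusted p = 0.00411). The third chain gene, COL6A3, had 1.51 ± 1.72, which its error leaves undetermined. Of 16 collagen chains tested, 6 were positive and 10 negative, with a median of -0.19.

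EHD2 (ENSG00000024422), an ATPase at the neck of caveolae, was at 12.9 and 14.4 CPM with lactate in PLC/PRF/5 against 4.45 and 5.23 CPM in the controls. The other lines had 462 and 478 CPM with lactate against 446 and 436 CPM without in HLF, and 713 and 544 CPM against 574 and 507 CPM in SNU475. The groups were apart in PLC/PRF/5 and in HLF and overlapped in SNU475. The difference was 1.33 ± 0.24 (adjusted p = 0.861, edgeR, 0.0494 with the replicate block and 0.000883 by DESeq2).

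ANXA6, which encodes a calcium-dependent membrane-binding annexin, was at 11.8 and 9.67 CPM with lactate against 4.96 and 4.23 CPM in PLC/PRF/5 controls, and between 245 and 378 CPM in the other lines. Its difference was 1.10 ± 0.24. GDF11, a ligand of the TGF-beta family, was at 15.7 and 15.5 CPM with lactate against 7.10 and 7.81 CPM in PLC/PRF/5 controls. In HLF it was lower with lactate, at 18.5 and 18.1 CPM against 26.6 and 20.6 CPM. Its difference was 1.39 ± 0.29, and the SNU475 groups overlapped. Both genes passed by DESeq2 (adjusted p = 0.0417 and 0.0306) and not by edgeR (adjusted p = 0.9999 for each).

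**Figure D3:**
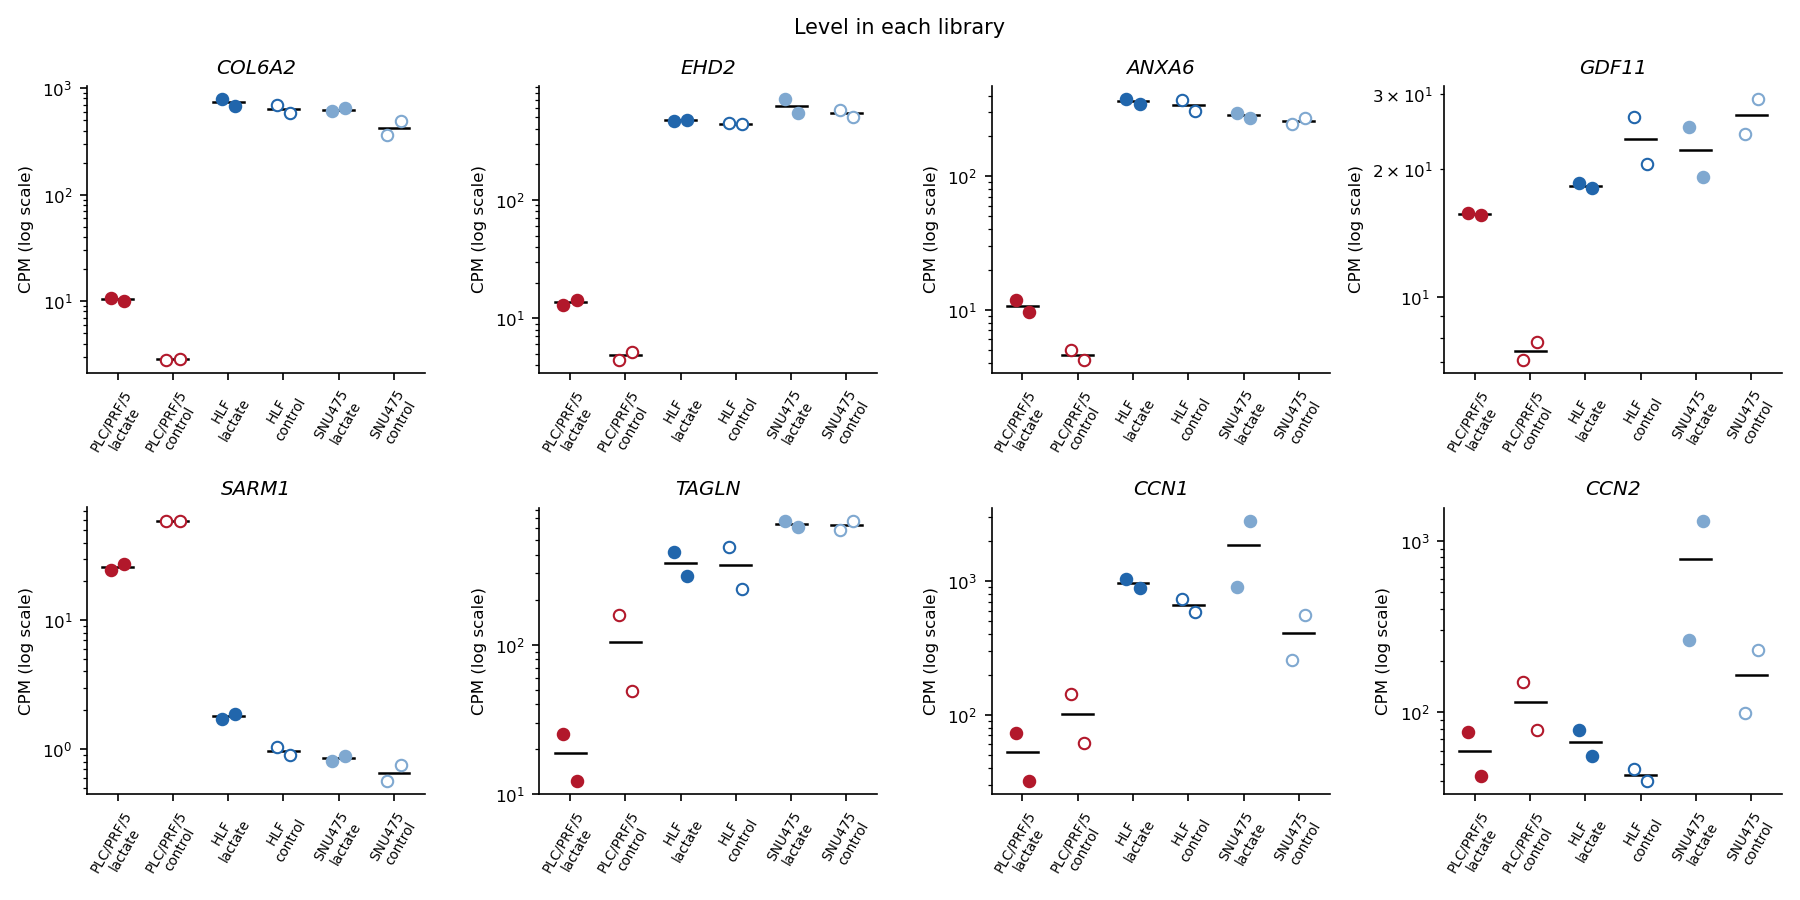
Level in every library (CPM, log axis) of 4 genes with a positive difference (top row) and 4 with a negative difference (bottom row). Filled points are lactate and open points control libraries, bars are group means of 2 libraries, and the level axis differs between panels. COL6A2, EHD2 and ANXA6 were at most 14.4 CPM in PLC/PRF/5 and at least 245 CPM in the other lines.

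Other genes of this group were near the lower limit of detection in PLC/PRF/5. EFEMP2, which encodes the elastic-fibre protein fibulin-4, was at 1.12 and 1.62 CPM with lactate in PLC/PRF/5 against 0.113 and 0.0995 CPM in the controls, a difference of 3.07 ± 0.58. MAPT, which encodes the microtubule protein tau, was at 1.74 and 2.84 CPM against 0.169 and 0.199 CPM, a difference of 2.76 ± 0.59. AARD was at 0.697 and 0.456 CPM with lactate against 0.0564 and 0.0995 CPM in PLC/PRF/5 controls, with a difference of 3.15 ± 0.75. None of these 3 genes passed an adjusted p of 0.05 by edgeR or DESeq2.

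The PLC/PRF/5 controls held no count of ENG, DISC1 or MICOS10-NBL1, so their fitted folds are no bounds. Against a floor of 3 counts over the control group, ENG, which encodes the TGF-beta co-receptor endoglin, had a level at least 4.43-fold higher in PLC/PRF/5 with lactate, on 16 counts. DISC1, a scaffold protein gene, was at least 3.6-fold higher on 13 counts. MICOS10-NBL1 was at least 22.7-fold higher on 82 counts, but it is a readthrough gene that shares sequence with both parent genes, so its counts are uncertain.

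NOSTRIN and ANO4 differed from the others in being highest in PLC/PRF/5. NOSTRIN, an adaptor of nitric oxide synthase trafficking, was at 19.3 and 26.4 CPM with lactate against 7.22 and 11.1 CPM in PLC/PRF/5 controls, and at 0.0454 and 0.0464 CPM against 0.348 and 0.422 CPM in HLF. Its difference was 2.74 ± 0.53. ANO4, of the anoctamin family of membrane proteins, was at 24.8 and 27.3 CPM against 15.3 and 14.3 CPM in PLC/PRF/5 and lower with lactate in both other lines, with a difference of 1.68 ± 0.41.

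Of the 12 positive genes, 10 had their lowest untreated level in PLC/PRF/5, and of the 12 negative genes 7 had their highest untreated level there. Among all 11526 genes that met the same level rule these shares were 37.7% and 34.8%. The PLC/PRF/5 controls are part of the difference, so an unusually low control raises it and this count is a description only. Summed over 20 genes at 50 CPM or more in every HLF and SNU475 library and under 0.5 CPM on average in PLC/PRF/5, the level was 4.03 and 5.01 CPM in the PLC/PRF/5 lactate libraries and 2.59 and 2.19 CPM in the controls. In HLF and SNU475 the same genes summed to between 3876 and 4826 CPM. The part of such low shared levels in the differences of COL6A2, EHD2 and the like was not tested.

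Among genes with a negative difference SARM1 (ENSG00000004139), an NAD-cleaving enzyme known from axon degeneration, had the smallest p. It was at 24.7 and 27.4 CPM with lactate in PLC/PRF/5 against 58.6 and 59.3 CPM in the controls. HLF had 1.72 and 1.86 CPM with lactate against 1.04 and 0.896 CPM without, and SNU475 had 0.809 and 0.881 CPM against 0.562 and 0.748 CPM. The groups were apart in every line, lower with lactate in PLC/PRF/5 and higher in the others. The difference was -1.80 ± 0.31 (adjusted p = 0.861, edgeR, and 0.00683 by DESeq2), and -3.50 with effective-length offsets.

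IRS2, a docking protein of the insulin receptor, was at 24.7 and 27.3 CPM with lactate against 41.6 and 32.7 CPM in PLC/PRF/5 controls. It was higher with lactate in HLF, at 44.1 and 32.1 CPM against 19.4 and 28.7 CPM, and in SNU475, at 14.3 and 19.9 CPM against 6.75 and 7.08 CPM. The groups were apart in each line, and the difference was -1.50 ± 0.33 (unadjusted p = 0.000749).

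TAGLN (ENSG00000149591), the actin-binding protein transgelin of contractile cells, was at 25.2 and 12.2 CPM with lactate against 158.6 and 49.1 CPM in PLC/PRF/5 controls. In HLF and SNU475 its groups overlapped. The difference was -2.49 ± 0.61 (adjusted p = 0.9999, edgeR, and 0.00290 with the replicate block). Without PLC/PRF/5 control replicate 1 it was -1.41.

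The remaining negative genes included regulators and enzymes with moderate levels in all lines. B4GALT5, an enzyme of lactosylceramide synthesis, had a difference of -0.96 ± 0.24, with 85.4 and 79.8 CPM with lactate against 127 and 122 CPM in PLC/PRF/5 controls. ATP7B, the copper exporter of hepatocytes, had -1.09 ± 0.30, FOXN3, a forkhead repressor, -1.31 ± 0.36 and RBM24, an RNA-binding regulator of splicing, -1.54 ± 0.41. In each of these 3 genes the lactate libraries were the lower in PLC/PRF/5 and the higher in HLF and SNU475, with no overlap. The pattern, also that of SARM1 and IRS2, was seen in 0.621% of all genes. The p that picked these genes rests on the same values, so the pattern is no separate result. With effective-length offsets the difference was -0.81 for ATP7B, -0.74 for FOXN3 and -1.44 for RBM24.

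SEMA4G was at 121 and 175 CPM with lactate in PLC/PRF/5 against 111 and 143 CPM in the controls, while in HLF it was at 8.44 and 3.02 CPM against 1.19 and 0.790 CPM, and in SNU475 at 5.47 and 2.98 CPM against 1.29 and 1.09 CPM. Its difference of -1.95 ± 0.53 (adjusted p = 0.0494 with the replicate block) thus came from lines in which the gene is scarce. HOXA13, a homeobox gene, had no count in the HLF controls and was at least 4.78-fold higher with lactate there, on 16 counts. CHKB-CPT1B, a readthrough gene with uncertain counts, was at least 11-fold higher in SNU475. Together with the Hippo pathway genes LATS2 and NUAK2, described next, these complete the 12 negative genes.

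YAP and TAZ are co-activators that enter the nucleus when the Hippo kinases, among them LATS2, are inactive, and they act through TEAD factors that bind the hexamer GGAATG. Their target genes include secreted matricellular proteins and feedback inhibitors of the pathway. Of 14 such targets tested, 12 had a negative difference, and 8 of them an unadjusted p under 0.05, where 1.75% of all genes were negative with such a p. FJX1, which encodes a secreted growth regulator, was positive with such a p. None passed an adjusted p of 0.05 by edgeR. The median difference was -0.85, beside 0.05 over all genes, with a median lactate effect of -0.49 in PLC/PRF/5, 0.36 in HLF and 0.35 in SNU475. In 8 of the 14 the effect was below 0 in PLC/PRF/5 and above 0 in both other lines, against 10.1% of all genes, and the opposite signs were seen in 1, against 10.4%.

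CCN1 (ENSG00000142871), a matricellular protein that binds integrins, was at 72.8 and 31.8 CPM with lactate in PLC/PRF/5 against 143 and 61.7 CPM in the controls. In HLF it was at 1044 and 885 CPM against 741 and 591 CPM, and in SNU475 at 900 and 2842 CPM against 258 and 556 CPM. The PLC/PRF/5 groups overlapped, since the library numbered 1 was the higher in each, and the other lines' groups did not. The difference was -2.33 ± 0.71 (adjusted p = 0.9999, edgeR, and 0.00231 with the replicate block). It was -1.50 against HLF alone and -3.16 against SNU475 alone.

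CCN2 (ENSG00000118523), the connective tissue growth factor gene, was at 77.1 and 42.8 CPM with lactate against 150 and 78.9 CPM in PLC/PRF/5 controls. It was at 78.6 and 55.7 CPM against 46.9 and 39.8 CPM in HLF, and at 263 and 1310 CPM against 99.1 and 231 CPM in SNU475. Its groups were apart in every line, and SNU475 lactate replicate 2 stood far above the rest. The difference was -2.37 ± 0.77 (adjusted p = 0.9999, edgeR, and 0.0142 with the replicate block), and -1.59 without that library.

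The kinases and scaffolds of the pathway had smaller differences. LATS2 was at 46.3 and 35.6 CPM with lactate against 65.5 and 54.5 CPM in PLC/PRF/5 controls, with a difference of -1.30 ± 0.32. NUAK2, a kinase of the AMPK-related family, was at 25.1 and 14.1 CPM against 53.4 and 28.6 CPM in PLC/PRF/5 controls, with a difference of -1.41 ± 0.39 (-0.89 without PLC/PRF/5 control replicate 1). AMOTL2, an angiomotin that holds YAP in the cytoplasm, had -1.33 ± 0.39. TEAD1 itself had -1.02 ± 0.43, the transmembrane gene CRIM1 -0.88 ± 0.40 and the phosphatase gene PTPN14 -0.83 ± 0.37. The classic target ANKRD1 had -0.32 ± 0.67, within 1 SE of 0, and AXL, a receptor tyrosine kinase, had 0.48 ± 0.27.

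The list's count of 8 negative genes with p under 0.05 rests in part on single libraries. The count over all genes with such a p moved as well when single libraries were left out, so the 2 were not compared. The list's median stayed between -1.15 and -0.53 in those fits. Within PLC/PRF/5, both libraries numbered 1 were above those numbered 2 for CCN1, CCN2, NUAK2 and TAGLN.

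**Figure D4:**
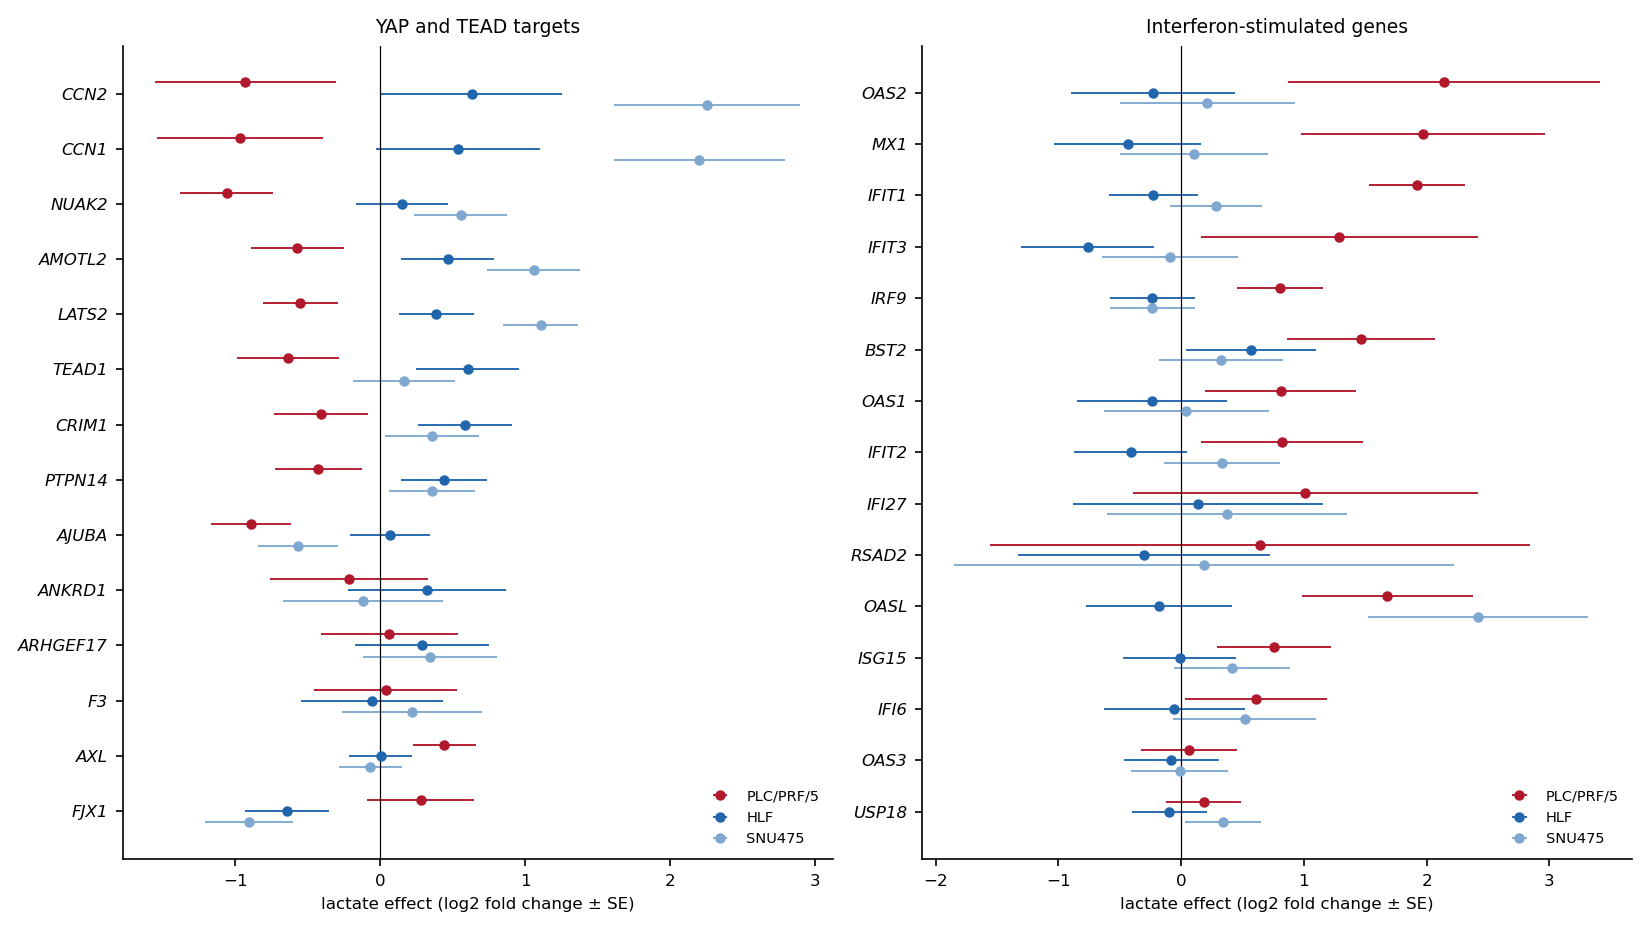
Lactate effect (log2 fold change ± SE) in PLC/PRF/5, HLF and SNU475 for the 14 YAP and TEAD targets (left) and for 15 of 19 interferon-stimulated genes (right), ordered by the difference between PLC/PRF/5 and the mean of the other lines. The interferon genes with an empty group, 3 in all, and 1 gene that is not reported here are not drawn. CCN2 and CCN1 have the most negative differences among the targets, -2.37 and -2.33, and IFIT1 has 1.89 among the interferon genes.

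Promoter sequences of some of these targets are shown because the TEAD hexamer can be seen in them. Of the 14 targets, 10 had an entry in the RefSeq promoter table (GRCh38.p14), with 13 promoters in all. GGAATG stood on either strand in the 250 bases before the start in 7 of these 13 promoters, each of another gene, against 11.9% of 35116 promoters. CCN1, TEAD1, CRIM1 and ARHGEF17 had no entry. The promoters of LATS2, F3 and FJX1 lacked the hexamer, although LATS2 had a negative difference. AXL, with a positive difference, held it in 1 of 2 promoters. A match is a description of the letters and not of binding. The list was made of known YAP and TEAD targets, so its share beside that of all promoters is no result about lactate. Shown are CCN2 (chr6:131951373-131951622, minus strand) and NUAK2 (chr1:205321746-205321995, minus strand), both with negative differences, and ANKRD1 (chr10:90921088-90921337, minus strand), which holds the hexamer as well and whose difference was within its error. THBS1 (chr15:39580829-39581078, plus strand), not on the list, passed with the replicate block. Each is written 5′ to 3′ along the gene's strand and ends at the base before the start site, with the hexamer or its reverse complement in capitals.
CCN2: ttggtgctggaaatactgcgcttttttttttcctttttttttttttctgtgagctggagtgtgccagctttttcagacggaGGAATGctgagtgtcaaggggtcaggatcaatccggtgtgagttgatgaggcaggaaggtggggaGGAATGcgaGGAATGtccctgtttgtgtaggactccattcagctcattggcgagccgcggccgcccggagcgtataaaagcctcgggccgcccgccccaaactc
NUAK2: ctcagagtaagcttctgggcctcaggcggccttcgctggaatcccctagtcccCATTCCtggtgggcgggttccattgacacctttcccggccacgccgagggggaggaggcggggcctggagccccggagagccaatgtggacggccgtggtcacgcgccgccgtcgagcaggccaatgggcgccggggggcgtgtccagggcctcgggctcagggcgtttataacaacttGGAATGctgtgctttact
ANKRD1: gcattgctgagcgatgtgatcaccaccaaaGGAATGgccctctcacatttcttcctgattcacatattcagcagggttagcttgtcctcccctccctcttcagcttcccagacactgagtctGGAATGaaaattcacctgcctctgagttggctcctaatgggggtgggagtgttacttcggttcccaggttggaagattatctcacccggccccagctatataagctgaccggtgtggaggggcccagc
THBS1: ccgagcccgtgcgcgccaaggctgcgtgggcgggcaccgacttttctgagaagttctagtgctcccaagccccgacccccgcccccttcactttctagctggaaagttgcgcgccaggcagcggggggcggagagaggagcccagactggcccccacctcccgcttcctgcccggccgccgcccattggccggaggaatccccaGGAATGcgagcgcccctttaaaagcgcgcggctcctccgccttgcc
CCN2 held the hexamer 3 times, at 169, 104 and 95 bases before the start, NUAK2 and ANKRD1 had 2 each, and THBS1 had 1 at 46 bases.

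THBS1, which encodes the matricellular protein thrombospondin-1, was at 14.7 and 6.68 CPM with lactate against 36.8 and 17.3 CPM in PLC/PRF/5 controls. It was at 793 and 756 CPM against 609 and 753 CPM in HLF, and at 625 and 1197 CPM against 413 and 1002 CPM in SNU475. Lactate libraries were the lower in PLC/PRF/5, and the SNU475 groups overlapped. Its difference was -1.61 ± 0.61 (adjusted p = 0.0142 with the replicate block), and -0.96 without PLC/PRF/5 control replicate 1. A list of 20 matrix and matricellular genes outside the collagens holds THBS1, CCN1 and CCN2 as well, and 15 of its members were negative and 5 positive (median -0.21, or -0.26 when members with an empty group are set to their bounds). Of the negative members 4 had an unadjusted p under 0.05 (1.75% of all genes), namely these 3 and the laminin gene LAMC1 (-0.50 ± 0.23), but 0 did without PLC/PRF/5 control replicate 1 and 1 did without PLC/PRF/5 lactate replicate 2. Of the positive members 2 had such a p (2.29% of all genes), FBLN5, which has a group without counts, and LTBP2. LTBP2, which encodes a latent TGF-beta binding protein, had a difference of 1.59 ± 0.58, with 5.54 and 6.88 CPM with lactate against 1.64 and 2.04 CPM in PLC/PRF/5 controls.

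Targets of TGF-beta and BMP signalling, which share CCN2 with the list above, leaned the same way. Of 15 tested, 11 were negative, where 45.4% of all genes were, and 5 of those had an unadjusted p under 0.05, against 1.75% of all genes. The median difference was -0.54 (-0.61 with bounds). SKIL, a feedback repressor of SMAD proteins, had -0.89 ± 0.31, the ligand gene TGFB2 -1.48 ± 0.60 (-0.80 without PLC/PRF/5 control replicate 1), the receptor gene TGFBR1 -0.86 ± 0.36 and the inhibitory SMAD7 -0.61 ± 0.25. SMAD7 was at 19.7 and 15.0 CPM with lactate against 26.3 and 20.5 CPM in PLC/PRF/5 controls, and higher with lactate in both other lines. The BMP targets ID1 and ID3 had 0.14 ± 0.21 and -0.06 ± 0.23. The count of 5 depended on single libraries, among them PLC/PRF/5 control replicate 1 and PLC/PRF/5 lactate replicate 2. It was not compared with the count over all genes in those fits. The median was -0.16 without SNU475 lactate replicate 1 and -0.22 without PLC/PRF/5 control replicate 1.

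Genes induced at once by growth signals leaned the same way too. Their median lactate effect was -0.04 in PLC/PRF/5, 0.04 in HLF and 0.75 in SNU475. Of 14 immediate early genes 13 were negative, against 45.4% of all genes, and 2 of them had a p under 0.05, against 1.75%. With the replicate block 4 had such a p, against 3.84% of all genes. The median was -0.27. FOSL2, a subunit of the AP-1 transcription factor, was at 21.9 and 25.5 CPM with lactate against 34.2 and 29.7 CPM in PLC/PRF/5 controls, and higher with lactate in HLF and SNU475, with a difference of -0.90 ± 0.27. DUSP1, a phosphatase that ends MAP kinase signals, had 31.3 and 150.5 CPM with lactate against 20.8 and 21.7 CPM in SNU475 controls. Its difference was -1.85 ± 0.63, and -1.09 without SNU475 lactate replicate 2. Without SNU475 lactate replicate 2, 8 of the 14 were negative and the median was -0.13. Of 14 MAP kinase feedback genes 12 were negative (median -0.19), but 4 without that same library (median 0.12).

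Mitosis genes showed how a uniform sign can go with small differences. Of 19 tested, 18 were negative and 0 had an unadjusted p under 0.05, with a median of -0.26. TPX2, a spindle assembly factor, was at 314 and 264 CPM with lactate against 382 and 344 CPM in PLC/PRF/5 controls, and its difference was -0.39 ± 0.28. Such genes vary together within a library, so their signs are not independent. Without SNU475 lactate replicate 2, 9 were negative and the median was 0.0005, and without PLC/PRF/5 lactate replicate 2, 10 were negative and the median was -0.13. When single libraries were left out the median ran from -0.46 to 0.0005. DNA replication genes had effects below 0 in all 19 members in PLC/PRF/5, with a median of -0.28 against -0.37 for the mean of the other lines, and a median difference of 0.08.

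Interferon-stimulated genes, which encode antiviral effectors and their regulators, leaned to the positive side. Of 19 tested, 18 had a positive difference and 2 of these an unadjusted p under 0.05, against 2.29% of all genes. With the replicate block 8 were positive with such a p, against 4.37% of all genes in that fit. None passed an adjusted p of 0.05 by edgeR. The median difference was 0.76, or 0.70 with bounds, and the median effect was 0.81 in PLC/PRF/5, -0.18 in HLF and 0.28 in SNU475.

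IFIT1, which binds foreign RNA, was at 17.1 and 19.9 CPM with lactate against 5.02 and 4.73 CPM in PLC/PRF/5 controls. In HLF it was at 38.0 and 67.1 CPM against 65.8 and 57.2 CPM, and in SNU475 at 16.2 and 13.4 CPM against 17.3 and 7.02 CPM. The groups were apart only in PLC/PRF/5. The difference was 1.89 ± 0.47 (unadjusted p = 0.00178).

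IRF9, a subunit of the factor that transmits interferon signals, was at 32.0 and 41.7 CPM with lactate against 21.3 and 20.8 CPM in PLC/PRF/5 controls, with a difference of 1.04 ± 0.43. MX1, an antiviral GTPase, was at 0.774 and 0.709 CPM against 0.169 and 0.199 CPM in PLC/PRF/5, close to the limit of detection, and had 2.14 ± 1.08. The abundant member OAS3, a sensor of double-stranded RNA, had 0.11 ± 0.48. The list depends on SNU475 control replicate 1, without which its median was 0.02 and 11 of 19 were positive. The median was 0.32 without PLC/PRF/5 lactate replicate 2 and 0.40 without HLF lactate replicate 1.

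The genes that handle lactate and glucose had median differences near that of all genes. The median difference was -0.01 for 21 glycolysis genes and 0.05 for 20 genes of lactate and pyruvate handling, which equals that of all genes. Leaving out single libraries gave -0.20 to 0.27 for glycolysis and -0.16 to 0.16 for lactate and pyruvate handling. PFKM, the glycolysis member with the smallest p, had 0.57 ± 0.20 (unadjusted p = 0.016, edgeR). LDHA, the main lactate dehydrogenase gene, was at 1200 and 1393 CPM with lactate against 1203 and 1231 CPM in PLC/PRF/5 controls, with a difference of 0.01 ± 0.24. SLC16A1, the transporter MCT1, had -0.16 ± 0.29, SLC2A1, the glucose transporter GLUT1, -0.08 ± 0.37 and HK2, the inducible hexokinase, -0.05 ± 0.59.

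PDK4, a kinase that shuts pyruvate dehydrogenase, was higher with lactate in each line and least so in PLC/PRF/5. It was at 115 and 155 CPM with lactate against 65.4 and 95.1 CPM in PLC/PRF/5 controls. In SNU475 it was at 7.15 and 10.2 CPM against 4.39 and 3.45 CPM, and in HLF at 1.27 and 0.789 CPM against 0.0497 and 0.105 CPM. The difference was -1.64 ± 0.46 (unadjusted p = 0.0042). Its levels in HLF controls were near the lower limit of detection, and the difference was -2.89 against HLF alone and -0.39 against SNU475 alone.

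SLC16A3, the lactate exporter MCT4, was at 18.4 and 41.1 CPM with lactate against 8.06 and 11.5 CPM in PLC/PRF/5 controls, with a difference of 0.99 ± 0.41, and 0.30 without PLC/PRF/5 lactate replicate 2. ALDOC, the brain-type aldolase, was at 7.82 and 33.6 CPM with lactate against 1.13 and 4.28 CPM in PLC/PRF/5 controls, and had 1.59 ± 0.84. The value was 0.20 without PLC/PRF/5 lactate replicate 2, 0.95 without PLC/PRF/5 control replicate 1 and 2.86 without PLC/PRF/5 control replicate 2. TXNIP, an arrestin that limits glucose uptake, was at 0.852 and 1.62 CPM against 0.451 and 0.299 CPM in PLC/PRF/5 and far higher in the other lines, with a difference of -0.44 ± 0.82. ATF5, a factor of the integrated stress response, was lower with lactate in all lines. It was at 82.5 and 95.6 CPM with lactate against 102 and 114 CPM in PLC/PRF/5 controls, at 12.8 and 22.3 CPM against 37.1 and 43.2 CPM in HLF, and at 20.7 and 16.5 CPM against 62.9 and 58.7 CPM in SNU475. Its positive difference of 1.18 ± 0.30 (unadjusted p = 0.00239) goes with a lactate effect nearer to 0 in PLC/PRF/5 than in the other lines.

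**Figure D5:**
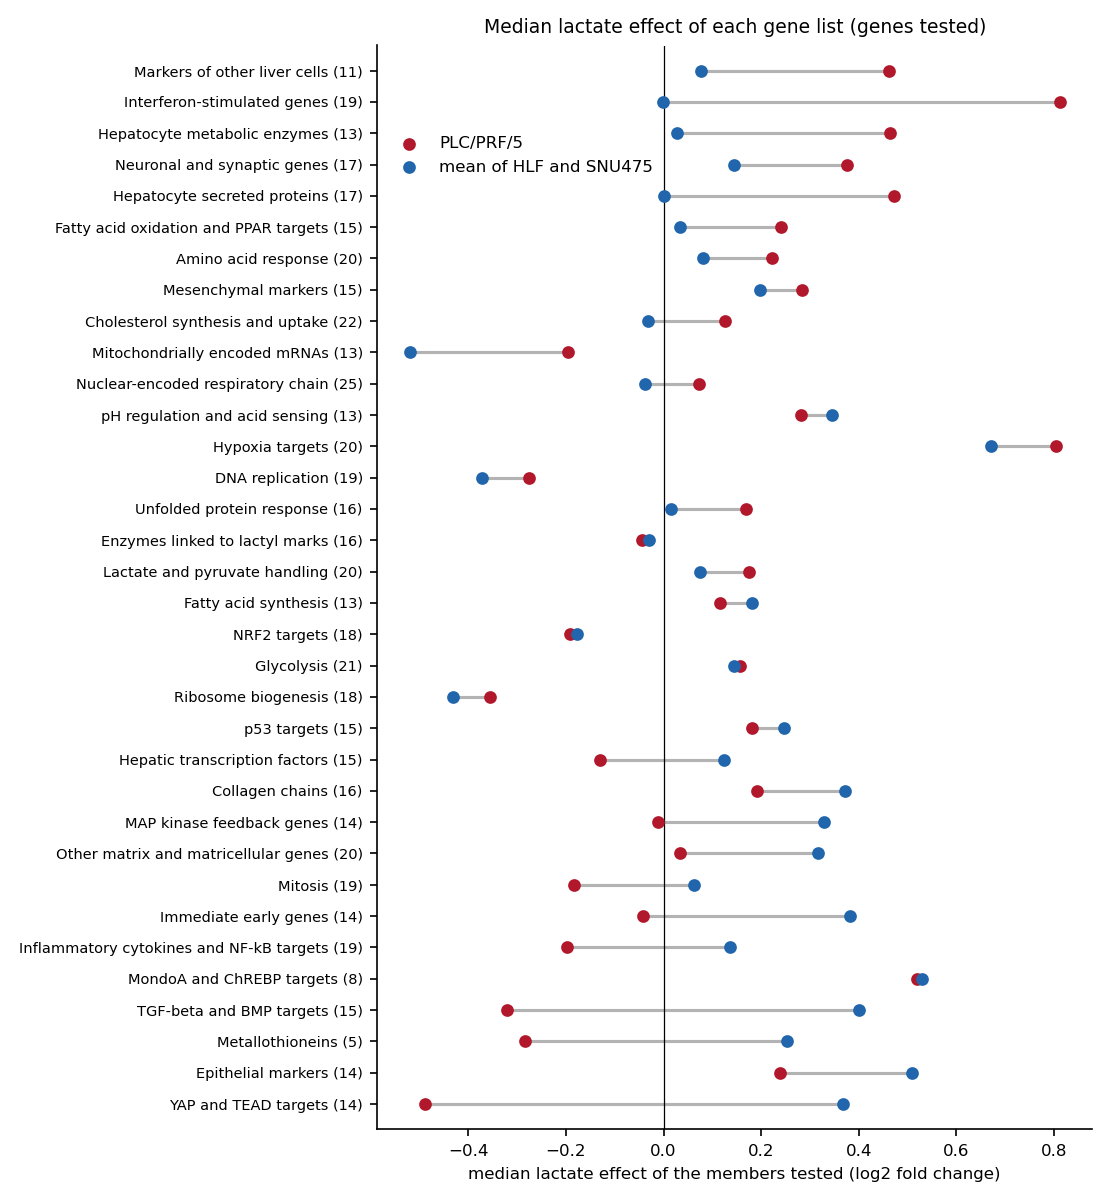
Median lactate effect (log2 fold change) of the tested members of 34 gene lists in PLC/PRF/5 and for the mean of HLF and SNU475, ordered by the median difference, with the number of genes tested in brackets. The medians lie on opposite sides of 0 for the YAP and TEAD targets (-0.49 in PLC/PRF/5 and 0.37 for the others) and close together for glycolysis (0.16 and 0.14).

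Hypoxia targets had like effects in both sides of the comparison, with a median of 0.80 in PLC/PRF/5 and 0.67 for the mean of the other lines, and a median difference of 0.11. LOX, the matrix cross-linking enzyme, was the member with the smallest p, at 3.41 and 6.17 CPM with lactate against 0.958 and 0.995 CPM in PLC/PRF/5 controls and with a difference of 1.78 ± 0.64. The list's sign rests on single libraries, since its median was -0.53 without PLC/PRF/5 lactate replicate 2. Nuclear-encoded respiratory chain genes were positive in 22 of 25 with a small median of 0.15, which was 0.01 without HLF control replicate 1. The 13 mitochondrially encoded mRNAs had a median of 0.16, beside the uneven mitochondrial shares of the HLF and SNU475 libraries given above.

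Of the other lists, ribosome biogenesis had a median difference of -0.01, the enzymes linked to lactyl marks 0.07, the unfolded protein response 0.08, fatty acid synthesis 0.02 and cholesterol synthesis 0.16. Genes of the amino acid response had 0.18, fatty acid oxidation 0.19, NRF2 targets 0.01, p53 targets -0.10, inflammatory genes -0.27, pH regulation 0.14 and MondoA and ChREBP targets -0.47. Metallothioneins had -0.54 on 5 genes tested. These medians depended on single libraries. Leaving out 1 at a time gave -0.21 to 0.10 for ribosome biogenesis, -0.11 to 0.22 for the lactyl enzymes, -0.03 to 0.17 for the unfolded protein response and -0.03 to 0.52 for cholesterol synthesis. The range was -0.08 to 0.22 for fatty acid synthesis, -0.08 to 0.46 for the amino acid response, -0.11 to 0.33 for fatty acid oxidation, -0.11 to 0.09 for NRF2 targets and -0.24 to 0.10 for p53 targets. It was -0.42 to -0.02 for inflammatory genes, -0.06 to 0.27 for pH regulation, -0.73 to -0.25 for MondoA and ChREBP targets and -1.09 to -0.14 for metallothioneins. None of these lists had more than 2 members with p under 0.05 in either direction in the fit to all libraries. The MondoA and ChREBP targets had 2 negative members with such a p among only 8 tested, against 1.75% of all genes. These were KLF10, at -0.84 ± 0.34, and MLXIPL, which had no count in the HLF controls.

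Lineage genes cannot be compared evenly, because many are absent from a line. The median difference was 0.17 for 15 mesenchymal markers (-0.07 with bounds) and -0.57 for 14 epithelial markers (-0.37 with bounds). Hepatocyte secreted proteins had 0.37 (0.45 with bounds), and 8 of the 17 tested had an empty group. Hepatic transcription factors had -0.14, hepatocyte metabolic enzymes 0.54 (0.40 with bounds) and neuronal genes 0.50 (0.02 with bounds). Markers of other liver cells had 1.01 (0.28 with bounds) on 11 genes. Without single libraries the medians ran from -0.01 to 0.45 for mesenchymal and from -0.78 to -0.11 for epithelial markers, and from -0.12 to 0.67 for hepatocyte secreted proteins. They ran from -0.60 to -0.09 for hepatic transcription factors, from 0.25 to 1.09 for hepatocyte enzymes, from 0.09 to 0.61 for neuronal genes and from 0.10 to 0.88 for markers of other liver cells. CYP3A5, a drug-metabolising cytochrome, was at 6.23 and 9.82 CPM with lactate against 3.95 and 5.87 CPM in PLC/PRF/5 controls and lower with lactate in both other lines, with a difference of 1.86 ± 0.62 (unadjusted p = 0.0113). ASIC1, an acid-sensing ion channel, was higher with lactate in all lines and had 1.29 ± 0.44, with 7.36 and 12.3 CPM against 2.65 and 2.29 CPM in PLC/PRF/5.

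CXCR5 and ENSG00000263244, called by 1 alternative each, rest on patchy counts. CXCR5, a chemokine receptor gene, was at 0.116 and 0.152 CPM with lactate against 0 and 0 CPM in PLC/PRF/5 controls, and in HLF at 0 and 0 CPM against 19.9 and 0 CPM. ENSG00000263244 was at 3.02 and 2.53 CPM with lactate against 0 and 0 CPM in PLC/PRF/5, at least 35.4 times the floor on 128 counts, while in HLF the libraries numbered 1 had 4.17 and 6.76 CPM and those numbered 2 had 0 and 0 CPM, with lactate first.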

How the data were processed

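RNA of 12 libraries was analysed as 6 groups of 2. Per the file headers, the deposited tables give RSEM expected counts, TPM and an effective length per gene. Per the submitters' processing notes, FastQC, STAR, RSEM and DESeq2 were used, without versions. The notes name mouse builds, but all 62757 rows carry human identifiers and 0 carry mouse ones. The human build is not given in the sources used here. Estimated counts as deposited by the authors need not be whole, so they were rounded, and 47 pseudoautosomal Y rows were added to their X copies.

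Genes were filtered with filterByExpr of edgeR 4.0.16 (R 4.3.3), libraries scaled with TMM factors of 0.794 to 1.165, and the quasi-likelihood test fitted with robust dispersions to all libraries, with 6 residual degrees of freedom and a common biological coefficient of variation of 0.26. Errors of log2 differences are SE, and p-values underwent Benjamini-Hochberg adjustment with a threshold of 0.05. The deposited TPM values of the authors were used only for markers. Sampling of counts limits low genes, and 3 counts over a group served as the floor. Alternatives used DESeq2 1.42.0, limma 3.58.1, other filters, offsets, reference lines and left-out libraries. The test was checked on simulated counts of 17901 genes, with 6 false calls.

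The contrast, its 34 gene lists and the rule for named genes were chosen with earlier results of these data known. Among protein-coding genes that average 2 CPM or more, with 10 or more counts in each line, the rule takes the 12 smallest p in each direction, up to 4 members per list and a set of 10 genes. Other genes, such as further list members, were named after their values were seen. DDX58 was not matched by symbol. The values of 1 interferon list member are not reported here, and it stays in the list's counts and medians.

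Same-numbered libraries deviated together from their group means, with correlations of 0.132 in PLC/PRF/5, 0.101 in HLF and 0.446 in SNU475. The block fit, which takes them as paired, was planned as an alternative and did not depend on these correlations. The numbers come from the sample titles, no label says what they share, and the PLC/PRF/5 libraries numbered 2 carry 3 in the deposited names. Replicates differed by a chi-square per degree of freedom of 11.4 or more, so none was a copy.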

Additional observations from a re-analysis of the deposited data

Results flagged for a closer look

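With the replicate block, 8 genes passed an adjusted p of 0.05 in the edgeR test of the difference itself. None passed in the reported fit, which has no block. The block adds a term for each line, so it leaves fewer residual degrees of freedom than the 6 of the reported fit. With the block the adjusted p was 0.00231 for CCN1, 0.00290 for TAGLN, 0.0142 for CCN2, 0.0142 for THBS1 and 0.0142 for ENSG00000263244. It was 0.0494 for each of SEMA4G, EHD2 and COL6A2. The blocked log2 difference was -2.27 for CCN1, -2.40 for TAGLN, -2.21 for CCN2, -1.66 for THBS1, -1.92 for SEMA4G, 1.34 for EHD2 and 1.47 for COL6A2, close to the values without the block. For CCN1, TAGLN, CCN2 and THBS1 the PLC/PRF/5 libraries numbered 1 were above those numbered 2 with lactate and without. Those numbers are the ones that differ between titles and deposited names. ENSG00000263244 had libraries at 0 in HLF and PLC/PRF/5, and its fitted size has no meaning. Only COL6A2 and EHD2 also passed by DESeq2.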

How the results depend on the processing

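The number of genes called for the difference was 0 in the reported fit and in all 26 alternatives but 4: it was 8 with the replicate block, which pairs same-numbered libraries, 6 by DESeq2, 69 without the low-count filter (34 higher and 35 lower) and 10 without SNU475 lactate replicate 1. Leaving out single libraries gave 0 to 10 calls. The count at an unadjusted p under 0.05 was 743 in the reported fit and 368 to 2370 when single libraries were left out. The alternative over genes with counts in every line was added after seeing the data. Of 157 named genes, 20 changed sign in at least 1 setting. Their differences ranged in the reported fit between LDHA at 0.01 and HOXA13 at -2.84.

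Against HLF alone the difference was 0.35 for SPRY1, -0.31 for LYZ, 0.16 for MT1X, 0.39 for UGT2B7, 0.26 for NR5A2, 0.18 for SLC16A1, 0.0053 for TXNIP, 0.000404 for SLC2A1 and -0.023 for LDHA. Against SNU475 alone it was 0.0061 for HOXA13, 0.18 for CEBPA and -0.28 for MT1E. With effective-length offsets it was -0.24 for ELOVL6, 0.33 for SLC2A1 and -0.11 for MT1E. Without both SNU475 libraries numbered 2 it was 0.066 for UGT2B7, 0.0097 for NR5A2, 0.0039 for TXNIP, 0.0025 for SLC2A1 and 0.039 for HK2. LDHA was at -0.015 by DESeq2 and with its size factors in edgeR.

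Leaving out single libraries turned the sign of genes with the following ranges: SERPINA1 -0.44 to 1.19, AFP -0.89 to 1.12, POLR1B -0.44 to 0.021, VTN -0.12 to 1.39, SLC16A1 -0.33 to 0.051, MT-ATP6 -0.23 to 0.66, MT-CO2 -0.28 to 0.61, SLC2A1 -0.51 to 0.26, HK2 -1.11 to 0.79, MT1E -0.25 to 0.51 and LDHA -0.11 to 0.12. The causes were not tested. With 2 libraries a group and a median SE of 0.45, a difference of 1 in a single gene was mostly below what could be called, and genes without counts in a line could not be compared at all.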
